A study of Oryza sativa with 8 samples.

Results

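The genes described here are 3 rice loci annotated as early light-induced protein with a chloroplast precursor, LOC_Os07g08160, LOC_Os07g08150 and LOC_Os01g14410, out of 55801 loci in the deposited expression table. They were picked by their locus names, with measured values of these libraries known. Which values prompted the choice is not stated. An earlier account of the same data set the genes among those lower in shaded first leaves, so every contrast that holds a first leaf library is given below as a description, with no test of the 3 genes. The coleoptile shade contrast is tested on the assumption that its values played no part, which the stated rule does not settle. The table holds 6 loci with this annotation in all. The other 3, LOC_Os02g16560, LOC_Os03g30400 and LOC_Os05g08110, stayed at or under 1.51 FPKM in every library, and none of them had a mean of at least 1 FPKM, the level needed to enter the tests. LOC_Os03g30400 was listed at 0 in 7 of the 8 libraries. The 3 expressed genes were between 9.81 and 795 FPKM.

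Early light-induced proteins are pigment-binding proteins of the thylakoid membrane, related to the antenna proteins that harvest light. They are made while plastids turn green and when plants meet more light than they can use, and they are thought to hold chlorophyll safely and so to limit photo-oxidative damage. In Arabidopsis their genes respond to the photoreceptors that sense red, blue and ultraviolet-B light, in part through the transcription factor HY5.

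The study asked how transcripts of young rice seedlings differ after a short spell of shade, light that is poor in red and blue and rich in far-red as under a leaf canopy. All seedlings were wild type of the cultivar Nipponbare, started in sterile water at 37 °C for 24 h and then kept at 28 °C in continuous white light. The labels also give peroxide at 3% and agar at 0.4% for every library. The 4 groups, each of 2 libraries, were first leaves in shade, first leaves in white light, coleoptiles in shade and coleoptiles in white light. The coleoptile is the sheath around the emerging grass shoot. Tissue cannot be told apart from age, since first leaves came from seedlings 3 days old and coleoptiles from seedlings 2 days old. Shade lasted 1 h, with red, blue and far-red light of 16, 1.3 and 48 µE per square metre per second. The white light groups stayed in white light for the same time. Red, blue and far-red values of the white light are not given here, so light colour and amount cannot be told apart in the shade contrasts. The labels do not say whether the 2 libraries of a group came from separate batches of seedlings, so the errors and tests rest on the spread between these libraries alone, which may be technical.

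Levels are in FPKM, by definition fragments scaled for transcript length and for the mapped fragments of the library. They can be compared between genes because length is divided out. The submitters' notes list Cuffnorm, and any further scaling between libraries that it applied is not known here. Fragment totals per library are not given. The value of the smallest steps put the depth of the other 7 libraries at 0.827 to 1.37 times that of coleoptile shade replicate 1. These are rough estimates, since only 18.0% to 23.0% of low loci lay within 1% of the ratio used. The summed FPKM of the 4 loci annotated as the small subunit of ribulose bisphosphate carboxylase, the carbon-fixing enzyme of green leaves, was 9952 to 14000 in first leaf libraries and 2884 to 4199 in coleoptile libraries. Seed storage and oil body loci summed to between 2.60 and 6.15 FPKM. Coleoptile white light replicate 1 stood apart. It was over 2-fold from replicate 2 at 15.1% of tested loci, against 1.42% to 2.69% in the other groups. Its WRKY and ZIM domain loci, families best known from wounding and defence, summed to 5098 FPKM. That sum was 2119 FPKM in white light replicate 2, and 1026 and 1002 FPKM in the shaded coleoptiles. Both white light coleoptile libraries thus exceeded both shaded ones. For the 3 early light-induced genes the values of white light replicate 1 were close to those of replicate 2, at most 0.32 apart on the log2 scale. In tissue samples such as these, fewer cells that make a transcript and less transcript per cell cannot be told apart.

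All 3 genes were lowest in the shaded first leaf and highest in the white light coleoptile, as the plot of FPKM by library shows. LOC_Os01g14410, the most abundant, was at 31.3 and 27.0 FPKM in shaded first leaves and at 311 and 179 FPKM in white light first leaves. It was at 692 and 446 FPKM in shaded coleoptiles and at 769 and 795 FPKM in white light coleoptiles. No 2 groups overlapped for this gene, and the order ran from shaded first leaf through white light first leaf and shaded coleoptile to white light coleoptile.

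LOC_Os07g08150 was at 18.6 and 16.1 FPKM in shaded first leaves and at 132 and 109 FPKM in white light first leaves. It was at 276 and 187 FPKM in shaded coleoptiles and at 368 and 296 FPKM in white light coleoptiles. The order was the same and again no groups overlapped, although the lower white light coleoptile library exceeded the higher shaded one by little.

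LOC_Os07g08160 was at 12.3 and 9.81 FPKM in shaded first leaves and at 219 and 137 FPKM in white light first leaves. It was at 161 and 80.4 FPKM in shaded coleoptiles and at 277 and 281 FPKM in white light coleoptiles. In this gene the white light first leaf and the shaded coleoptile overlapped, with means of 178 ± 57.5 and 121 ± 57.2 FPKM (SD, n = 2 each), so their order is not given by these libraries. The remaining groups were apart.

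**Figure D1:**
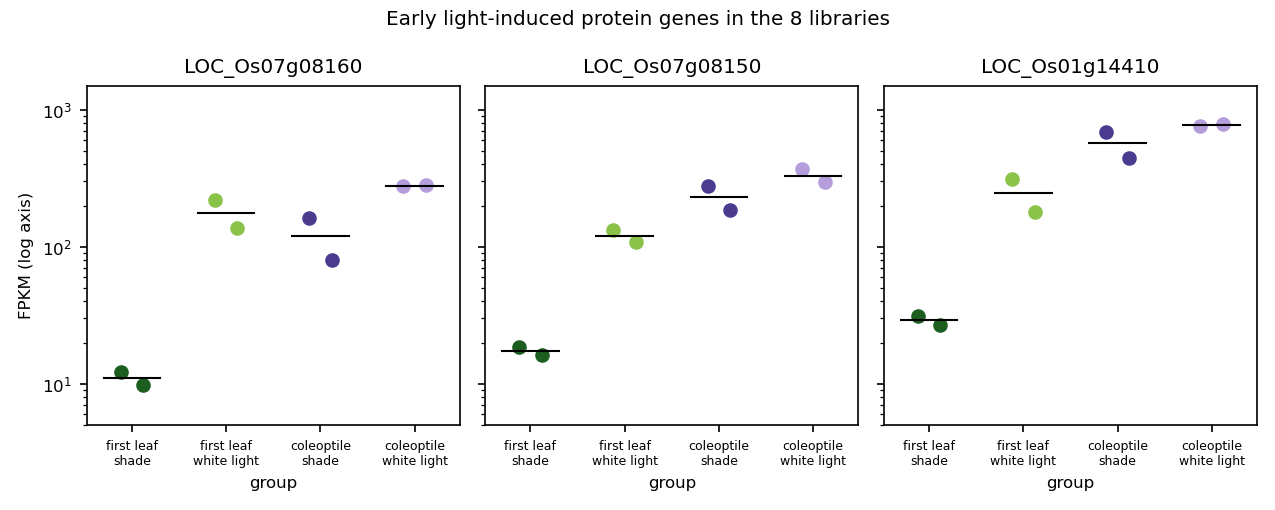
FPKM (log axis) of LOC_Os07g08160, LOC_Os07g08150 and LOC_Os01g14410 in the 4 groups; each point is 1 library and each bar the mean of 2. Shaded first leaves lie between 9.81 and 31.3 FPKM for all 3 genes, below every other library.

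In the first leaf, the contrast taken here as the one behind the choice of genes, the summed FPKM of the 3 genes was 57.5 ± 6.54 in shaded leaves and 544 ± 167 in white light leaves (SD, n = 2 each), a 9.46-fold lower mean in shade. LOC_Os07g08160 had the widest gap, with a mean 16.1 times lower in shade, followed by LOC_Os01g14410 at 8.42 times and LOC_Os07g08150 at 6.96 times. On the log2(FPKM + 1) scale the differences between shade and white light were -3.86 ± 0.35, -2.98 ± 0.31 and -2.73 ± 0.24 (SE from limma). Among the 21014 loci tested these were the lowest, the 4th lowest and the 6th lowest differences. In rank, LOC_Os07g08160 was the 10047th and 11398th most abundant locus in the shaded first leaves and the 470th and 838th in the white light first leaves. For all 3 genes both shaded libraries lay under both white light libraries, as they did for 18.3% of all tested loci.

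In the coleoptile, the means of all 3 genes were also lower in shade, by less, and none passed the test. The summed FPKM was 921 ± 294 in shaded coleoptiles and 1392 ± 29.4 in white light coleoptiles (SD, n = 2 each), a mean 1.51-fold lower in shade. LOC_Os07g08160 differed by -1.28 ± 0.35 on the log2 scale (SE; limma adjusted p = 0.240), with a 95% interval from -2.11 to -0.45. LOC_Os07g08150 differed by -0.53 ± 0.24 (adjusted p = 0.525, interval from -1.09 to 0.02) and LOC_Os01g14410 by -0.49 ± 0.31 (adjusted p = 0.743, interval from -1.23 to 0.24). The adjustment is that of Benjamini and Hochberg over all tested loci, of which 9, or 0.0428%, were called in this contrast at an adjusted p under 0.05. Of the 9, 7 were higher and 2 lower in shade, against 6 and 0 with libraries scaled to equal sums and 9 and 5 with libraries scaled to equal medians. At an unadjusted p under 0.05, 5.74% of loci were lower, and LOC_Os07g08160 was among them. Both shaded libraries were under both white light libraries in all 3 genes and in 15.3% of all loci.

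The coleoptile values turned on the shaded pair more than on the white light pair. Shaded coleoptile replicate 2 had the lower value in each gene, and without it the differences were -0.78, -0.26 and -0.18 for LOC_Os07g08160, LOC_Os07g08150 and LOC_Os01g14410 (adjusted p = 0.721, 1.00 and 1.00). Without shaded coleoptile replicate 1 they were -1.78, -0.81 and -0.81 (adjusted p = 0.616, 0.819 and 1.00). Leaving out the white light library that stood apart gave -1.29, -0.38 and -0.52 (adjusted p = 0.206, 0.573 and 0.588). Over all alternatives the adjusted p of LOC_Os07g08160 ran from 0.137 to 0.721. With 2 libraries against 2, an exact two-sided permutation test cannot go below p = 0.333.

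The gap between the shade differences of the tissues, first leaf minus coleoptile, was -2.58 ± 0.50, -2.19 ± 0.34 and -2.49 ± 0.44 (SE) on the log2 scale for LOC_Os07g08160, LOC_Os07g08150 and LOC_Os01g14410. It is a description, since it holds the first leaf contrast. Over all tested loci, 0.019% were called for this gap. In both tissues LOC_Os07g08160 had the largest difference of the 3 genes between shade and white light.

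**Figure D2:**
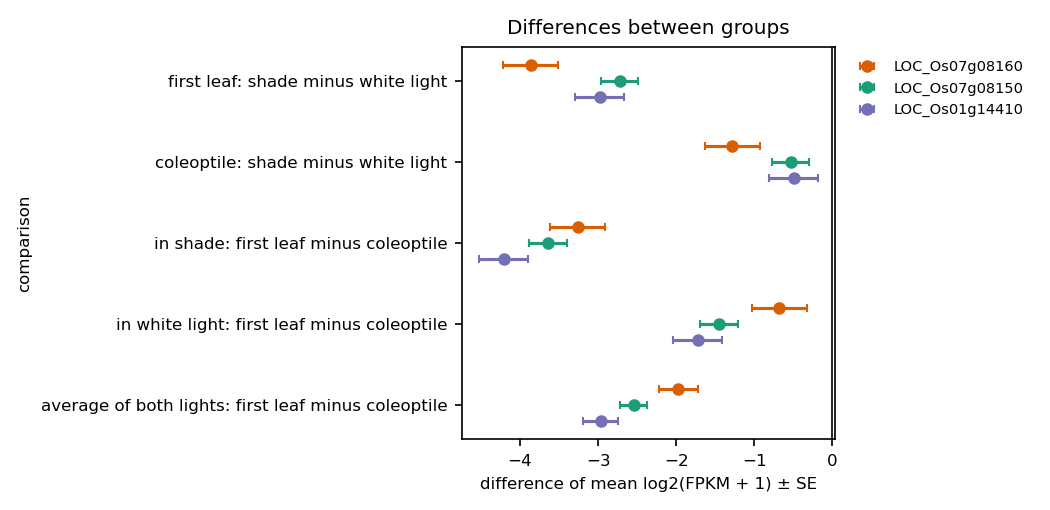
Differences between groups for the 3 genes as the mean of log2(FPKM + 1) with its standard error from limma. Every point is below 0; the shade differences run from -3.86 to -2.73 in the first leaf and from -1.28 to -0.49 in the coleoptile.

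Between tissues, the means of all 3 genes were lower in the first leaf than in the coleoptile in either light. Averaged over both lights, the first leaf minus coleoptile difference was -2.97 ± 0.22 for LOC_Os01g14410, -2.55 ± 0.17 for LOC_Os07g08150 and -1.97 ± 0.25 for LOC_Os07g08160 on the log2 scale (SE from limma). It is a description, because the shaded first leaf libraries, where the genes were known to be low, are part of the average. Every first leaf library was below every coleoptile library for LOC_Os01g14410 and LOC_Os07g08150, as for 11.3% of tested loci, and not for LOC_Os07g08160. Leaving out 1 library at a time gave -3.16 to -2.77 for LOC_Os01g14410, -2.69 to -2.41 for LOC_Os07g08150 and -2.22 to -1.72 for LOC_Os07g08160. Other loci were tested in this contrast, and limma called 20.8% of all tested loci, 9.48% lower and 11.3% higher.

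The tissue difference was unequal in the 2 lights. In shade the means were 19.5 times (LOC_Os01g14410), 13.4 times (LOC_Os07g08150) and 10.9 times (LOC_Os07g08160) lower in the first leaf than in the coleoptile. In white light they were 3.19, 2.75 and 1.57 times lower, in the same order of genes. For LOC_Os07g08160 the white light difference of -0.68 ± 0.35 (SE) on the log2 scale ran from -1.02 to -0.35 when 1 library at a time was left out. Both first leaf libraries were below both coleoptile libraries in all 3 genes in shade, against 29.4% of tested loci, and in white light, against 23% of tested loci. These values are given without a test, as each holds a group of the first leaf shade contrast.

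The mix of the 3 transcripts was not the same in the 4 groups. LOC_Os01g14410 made up 50.7% ± 0.46 of their summed FPKM in shaded first leaves and 44.6% ± 3.43 in white light first leaves, against 61.9% ± 0.86 in shaded coleoptiles and 56.2% ± 2.55 in white light coleoptiles (SD, n = 2 each). LOC_Os07g08160 made up 19.2% ± 0.86 in shaded and 32.6% ± 0.53 in white light first leaves, and 12.8% ± 2.14 in shaded and 20.0% ± 0.63 in white light coleoptiles. Its share was lower in shade in both tissues, with no overlap between libraries, and higher in the first leaf than in the coleoptile in either light. The share of LOC_Os07g08150 ran from 20.0% to 30.4% over the 8 libraries. It was 30.2% ± 0.40 in shaded and 22.8% ± 3.97 in white light first leaves, higher in shade with no overlap between libraries. In coleoptiles it was 25.3% ± 1.27 in shade and 23.8% ± 3.17 in white light, where the libraries overlapped. Shares do not depend on how a library is scaled.

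**Figure D3:**
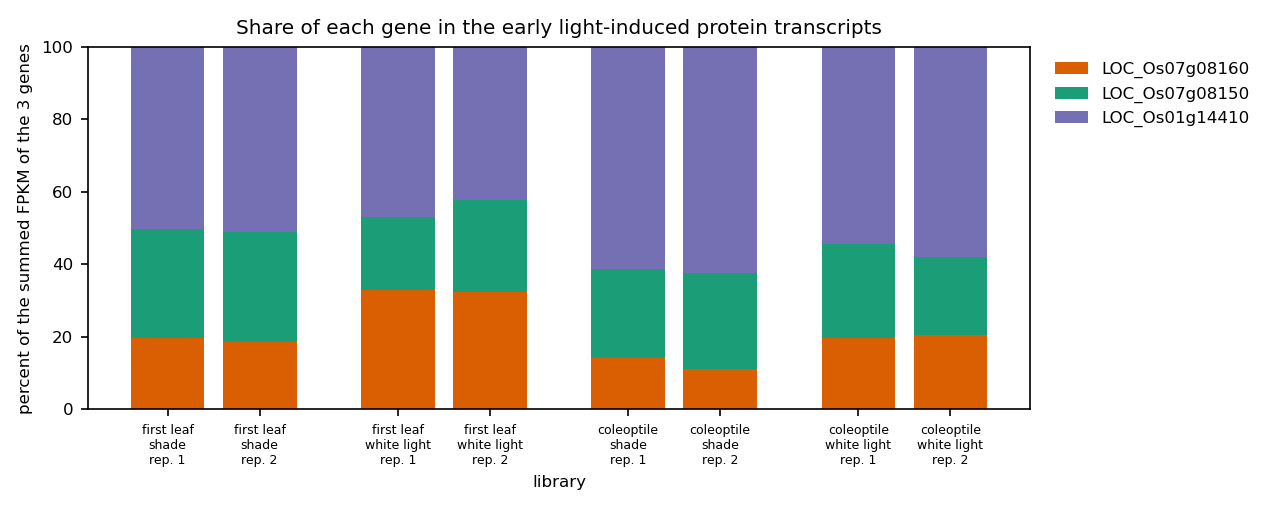
Percent of the summed FPKM of the 3 genes held by each gene in each library. LOC_Os07g08160 holds 18.6% and 19.8% in shaded first leaves and 32.3% and 33.0% in white light first leaves, and 11.3% and 14.3% in shaded coleoptiles and 19.6% and 20.5% in white light coleoptiles.

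LOC_Os07g08150 and LOC_Os07g08160 bear consecutive locus numbers on chromosome 7, and LOC_Os01g14410 lies on chromosome 1, as read from the locus names. Yet the closest pair in expression was LOC_Os07g08150 with LOC_Os01g14410, with a Pearson correlation of 0.996 for log2(FPKM + 1) over 8 libraries, against 0.944 for the neighbours on chromosome 7. These correlations are mostly set by the 4 groups that the libraries share. If the neighbours are similar in sequence, reads may have been divided between them, and the split of their levels is then uncertain. Of 17 other loci with numbers within 50 of a member, 10 had a mean of at least 1 FPKM. Their first leaf shade differences ran from -0.64, for the heat stress transcription factor LOC_Os07g08140, to 0.18, for the PPR repeat protein LOC_Os07g08180. The locus after LOC_Os07g08160, the ruvB-like LOC_Os07g08170, was at 9.99 and 6.50 FPKM in shaded and 14.0 and 11.6 FPKM in white light first leaves, a difference of -0.60. In the averaged tissue contrast 2 of the 10 were called, beside 20.8% of all tested loci. LOC_Os07g08210 was higher in the first leaf (1.08, limma adjusted p = 0.00181) and WRKY1 (LOC_Os01g14440) lower (-1.64, adjusted p = 0.0311). LOC_Os07g08140 and LOC_Os07g08170, on either side of the chromosome 7 pair by number, had the lowest first leaf shade differences of the 10. These were -0.64 and -0.60, where LOC_Os07g08160 and LOC_Os07g08150 had -3.86 and -2.73. A part of the region in these values was not tested. The other neighbours that passed the filter were LOC_Os07g08120, LOC_Os07g08190, LOC_Os07g08200, LOC_Os01g14370 and LOC_Os01g14420, and their first leaf shade differences lay between -0.34 and 0.08.

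Among 13817 other loci that reached 10 FPKM in some library, LOC_Os10g41100, a CCT motif protein of a family with clock and flowering regulators, was the most like the mean of the 3 genes over the 8 libraries (Pearson r = 0.971). It was at 1.92 and 2.65 FPKM in shaded first leaves, 10.3 and 8.30 FPKM in white light first leaves, 14.7 and 11.4 FPKM in shaded coleoptiles and 11.2 and 13.4 FPKM in white light coleoptiles. Like the 3 genes it was low in the shaded first leaf, and unlike them its coleoptile groups overlapped. Next came the expressed proteins LOC_Os01g07700 (r = 0.969) and LOC_Os03g15720 (0.968), the dehydrogenase LOC_Os01g54940 (0.965) and LOC_Os01g52630 (0.963), annotated as a regulator of chromosome condensation. LOC_Os02g35039, LOC_Os02g55134, LOC_Os01g70160, LOC_Os01g73500 and the glutathione S-transferase LOC_Os10g38360, of a detoxifying enzyme family, followed with r from 0.954 to 0.950. The range of these 10 loci was narrower: their first leaf shade differences lay between -1.65 and -0.32 on the log2 scale, where the 3 genes had -3.86 to -2.73. The 3 genes are taken as chosen on that contrast and the 10 loci were picked for likeness to them. The narrower range and the low values in shaded first leaves thus follow largely from the choice. LOC_Os07g08160 alone had a chaperone among its 3 most similar loci, the DnaJ protein LOC_Os03g57340 (r = 0.956), at 114 and 99.6 FPKM in shaded and 268 and 232 FPKM in white light first leaves. For LOC_Os07g08150 the 3 most similar were LOC_Os01g14410, LOC_Os01g52630 and LOC_Os02g55134, and for LOC_Os01g14410 they were LOC_Os07g08150, LOC_Os01g52630 and LOC_Os01g54940.

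**Figure D4:**
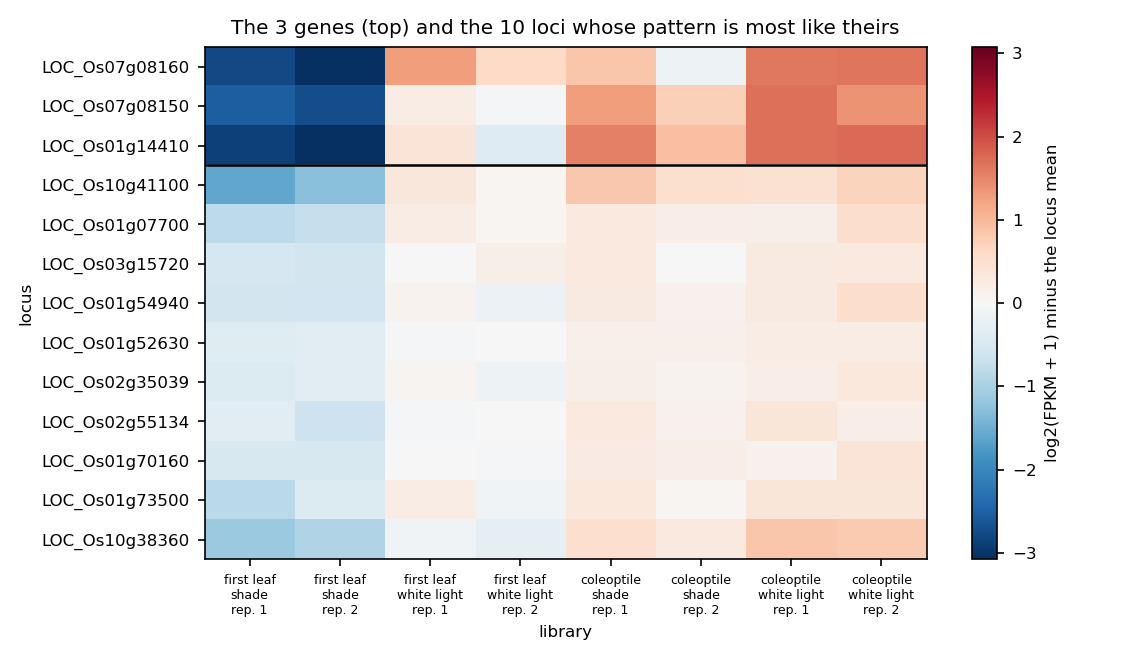
log2(FPKM + 1) minus the mean of each locus over the 8 libraries, for the 3 genes (above the line) and the 10 loci with the highest correlation to their mean (r from 0.971 to 0.950). Both shaded first leaf libraries are the lowest in every row, and the 3 genes have the widest range, which follows largely from how the loci were picked.

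The antenna proteins, the abundant relatives of the early light-induced proteins, had mostly positive differences between tissues, where the 3 genes had negative ones. Averaged over both lights, limma called 6 of 17 chlorophyll A-B binding loci (35.3%) higher and 0 lower in the first leaf. Of all tested loci, 11.3% were called higher and 9.48% lower. The median antenna difference was 0.76, against 0.01 over all tested loci. LOC_Os02g52650 was 1.36 higher (adjusted p = 0.00157) and LOC_Os01g41710 1.33 higher (adjusted p = 0.0103). Photosystem subunits likewise had 9 of 23 (39.1%) higher and 0 lower (median 0.83), among them the photosystem II subunit LOC_Os05g43310 (1.02, adjusted p = 0.00173) and the photosystem I assembly protein LOC_Os01g58049 (1.11, adjusted p = 0.00364). Of the 4 carboxylase small subunit loci 3 (75.0%) were called higher and 0 lower, led by LOC_Os12g17600 (2.52, adjusted p = 0.000531) and LOC_Os12g19381 (1.72, adjusted p = 0.00202). The locus that was not called had a negative difference of -1.23, at an unadjusted p under 0.05 (limma). The antenna count was 12 and the photosystem count 16 when coleoptile white light replicate 2 was left out. Without coleoptile shade replicate 2 or any 1 of the 4 first leaf libraries they were 1 to 3 and 3 to 5.

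Set against the antenna transcripts, the early light-induced sum was smaller in the first leaf. It came to 0.242% and 0.186% of the summed antenna FPKM in shaded first leaves and 1.88% and 1.35% in white light first leaves. In coleoptiles it came to 5.10% and 4.54% in shade and 11.4% and 6.30% in white light. The first leaf libraries lay under all coleoptile libraries in this ratio. The white light coleoptile value of 11.4% belongs to replicate 1, whose antenna sum, 12421 FPKM, was the lowest of the 8 libraries.

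Genes of pigment metabolism, on which early light-induced proteins act by binding chlorophyll and carotenoids, were called in both directions between tissues, beside 20.8% of all loci called. Of 15 chlorophyll synthesis loci 0 were higher and 1 (6.67%, a share below that of all loci) was lower in the first leaf, protochlorophyllide reductase A (LOC_Os04g58200), which reduces the precursor of chlorophyll in light (-0.85, limma adjusted p = 0.0157). Of 5 chlorophyll breakdown loci 2 (40.0%) were lower, the pheophorbide a oxygenase LOC_Os03g59110 (-1.68, adjusted p = 0.00442) and the chlorophyllase LOC_Os10g28370 (-0.53, adjusted p = 0.0357). Of 11 carotenoid loci 4 were higher and 1 lower (45.5% in all). Those higher included zeaxanthin epoxidase LOC_Os04g37619 (0.79, adjusted p = 0.00347), which converts the photoprotective pigment zeaxanthin back to violaxanthin. The carotene dioxygenase LOC_Os01g38580 was also higher (2.14, adjusted p = 0.0284). It was at 6.57 FPKM in coleoptile white light replicate 1, within the first leaf values of 4.59 to 10.5 FPKM, and at 0.157 to 0.426 FPKM in the other coleoptile libraries. The carotenoid locus called lower was the phytoene synthase LOC_Os09g38320 (-1.49, adjusted p = 0.0473), at the entry to carotenoid synthesis. This synthase was at 104 FPKM in coleoptile white light replicate 1 and 24.1 FPKM in replicate 2. The carotenoid count was 1 without coleoptile shade replicate 1 or 2 or any 1 first leaf library, and the breakdown count 1 without the same libraries and 3 without coleoptile white light replicate 2. The chlorophyll synthesis count was 0 without coleoptile shade replicate 1, first leaf shade replicate 2 or first leaf white light replicate 1, and 2 without coleoptile white light replicate 2.

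Enzymes that remove reactive oxygen had 1 of 31 loci higher and 5 lower in the first leaf, a share of 19.4% that is near the 20.8% of all loci. The thylakoid-bound ascorbate peroxidase OsAPx8 (LOC_Os02g34810) was 1.78 higher (limma adjusted p = 0.000520), and the peroxiredoxin LOC_Os07g44440 and catalase isozyme B (LOC_Os06g51150) were lower, with differences of -1.49 and -0.79 (adjusted p = 0.00146 and 0.0150). Flavonoid synthesis loci, whose products screen ultraviolet light, had 15 of 59 higher and 11 lower (44.1% in all), led by LOC_Os01g25010 (3.51, adjusted p = 9.02e-05), LOC_Os01g53330 (1.63, adjusted p = 0.000473), LOC_Os08g20130 (-3.64, adjusted p = 0.000223) and LOC_Os07g10220 (-2.32, adjusted p = 0.000366). Without coleoptile shade replicate 2 the flavonoid count was 17. The antioxidant count was 2 or 3 without that library or any 1 first leaf library.

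B-box factors, HY5 and bZIP loci listed with HY5 had calls in both directions between tissues. B-box factors and HY5 carry light signals to target genes. The locus annotated as HY5, LOC_Os01g07880, was at 23.2 and 16.5 FPKM in shaded first leaves and 31.0 and 31.2 FPKM in white light first leaves. It was at 47.0 and 39.3 FPKM in shaded coleoptiles and 42.0 and 61.1 FPKM in white light coleoptiles. All first leaf libraries were under all coleoptile libraries, and the averaged difference of -0.89 was called (limma adjusted p = 0.00988). LOC_Os06g39960, annotated only as a bZIP transcription factor and listed with HY5 here from general knowledge, was at 2.10 and 4.10 FPKM in shaded and 3.21 and 2.90 FPKM in white light first leaves, against 13.6 and 11.9 FPKM in shaded and 20.0 and 34.8 FPKM in white light coleoptiles. Its averaged difference was -2.27 (adjusted p = 0.000698), and that of LOC_Os02g10860, a bZIP locus listed in the same way, was -0.45 (adjusted p = 0.180). With shade, none of the 3 passed in either tissue. The differences of LOC_Os01g07880, LOC_Os06g39960 and LOC_Os02g10860 were -0.64, -0.02 and -0.41 in the first leaf (adjusted p = 0.809, 1.00 and 1.00). They were -0.23, -1.00 and -0.40 in the coleoptile (adjusted p = 0.916, 0.327 and 0.814). The -0.02 had an SE of 0.32 and so gives no direction. In the list as a whole, 17 of 31 loci had negative shade differences in the first leaf and 12 of 31 in the coleoptile. Of the 31 loci in this list, 8 were higher and 7 lower in the first leaf (48.4% in all, beside 20.8% of all tested loci). Among them were the B-box loci LOC_Os02g49230 (1.16, adjusted p = 0.00200), LOC_Os04g41560 (1.13, adjusted p = 0.00369) and LOC_Os06g49880 (-1.81, adjusted p = 0.00121). In the photoreceptor list of 4 loci, phytochrome A (LOC_Os03g51030) had the smallest p between tissues (-0.40, limma adjusted p = 0.229). The list is by keyword and includes LOC_Os05g30190, annotated as a phytochrome A-associated F-box protein and not as a photoreceptor. Of the 4, limma called 0 between tissues, with 0 at an unadjusted p under 0.05, where 32.9% of all loci lay. It called 1 without coleoptile white light replicate 1.

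Under shade, 0 loci of these lists were called in either tissue by limma, as were 0% of all loci in the first leaf. Without coleoptile white light replicate 1, 12 list loci were called in the first leaf and 5 in the coleoptile, and without replicate 2, 12 and 29. At an unadjusted p under 0.05, in the first leaf the list of B-box factors, HY5 and the bZIP loci held 8 higher and 6 lower of 31, against 3.01% and 2.47% of all tested loci. The B-box locus LOC_Os09g35880 had the smallest p (-1.01, adjusted p = 0.155). The antenna list held 1 higher and 1 lower of 17 (median -0.41), with LOC_Os02g10390 at -0.99 (adjusted p = 0.707). Carotenoid loci held 1 higher and 2 lower of 11, led by zeaxanthin epoxidase LOC_Os04g37619, at 19.2 and 22.9 FPKM in shaded and 44.1 and 43.5 FPKM in white light first leaves (-1.03, adjusted p = 0.200). Chlorophyll synthesis loci held 1 higher and 2 lower of 15, led by LOC_Os10g41780, the oxygenase that turns chlorophyllide a into chlorophyllide b (-1.29, adjusted p = 0.499). Photosystem loci held 2 higher and 1 lower of 23 (LOC_Os05g43310, -0.75, adjusted p = 0.481). Breakdown, antioxidant and photoreceptor loci each held 1 higher and 0 lower, the pheophorbide a oxygenase LOC_Os02g54980 (0.56, adjusted p = 0.723), ascorbate peroxidase LOC_Os09g36750 (1.02, adjusted p = 0.543) and phytochrome B LOC_Os03g19590 (0.55, adjusted p = 0.802). Flavonoid loci held 1 higher and 1 lower of 59, with LOC_Os09g31506 at -0.90 (adjusted p = 0.533). The carboxylase small subunit held 0 either way, with LOC_Os12g19470 at -0.34 (adjusted p = 1.00).

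Heat shock loci had mostly negative differences in the shaded first leaf. Of 132 heat shock loci, 28 (21.2%) were lower and 4 (3.03%) higher at an unadjusted p under 0.05 (limma). Over all tested loci these shares were 2.47% and 3.01%. The median of the list was -0.18, against 0.01 over all loci. The small heat shock protein LOC_Os06g14240 was at 0.174 and 0.213 FPKM in shaded and 8.78 and 7.08 FPKM in white light first leaves (-2.90, limma adjusted p = 0.0570). The summed FPKM of the list was 3763 and 3298 in shaded and 4572 and 4571 in white light first leaves, and 3762 and 3679 in shaded and 4375 and 4445 in white light coleoptiles. The part of heat shock transcripts in the early light-induced values was not tested. Between tissues 10 heat shock loci were higher and 8 lower, a share of 13.6% that is below the 20.8% of all loci. Among them were the DnaJ proteins LOC_Os01g53020 (1.72, adjusted p = 0.000435) and LOC_Os04g57880 (1.66, adjusted p = 0.00115), the heat shock factor LOC_Os01g39020 (-1.34, adjusted p = 0.00461) and the DnaK protein LOC_Os03g11910 (-0.81, adjusted p = 0.00709). That count was 30 and 28 without coleoptile white light replicate 1 or 2, and 9 to 11 without a shaded coleoptile library, first leaf shade replicate 2 or a white light first leaf library.

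In the shaded coleoptile, 4.17% of all loci were higher and 5.74% lower at an unadjusted p under 0.05, and the lists lay on both sides of these shares. The list of B-box factors, HY5 and the bZIP loci held 7 higher (22.6%) and 2 lower of 31, led by LOC_Os06g49880, at 25.8 and 28.3 FPKM in shaded and 7.36 and 10.8 FPKM in white light coleoptiles (1.49, limma adjusted p = 0.143). The heat shock list held 3 higher and 14 lower (10.6%) of 132, led by the heat shock factor LOC_Os02g32590, at 2.36 and 1.78 FPKM in shade and 96.1 and 25.6 FPKM in white light (-4.05, adjusted p = 0.104). The antenna list held 0 either way, with LOC_Os04g59440 at -0.46 (adjusted p = 0.896). In the other pathway lists the smallest p belonged to LOC_Os06g46436 (photosystem I, -1.78, adjusted p = 0.282), LOC_Os04g58200 (0.79, adjusted p = 0.328), LOC_Os10g28370 (0.53, adjusted p = 0.411), the lycopene cyclase LOC_Os02g09750 (0.78, adjusted p = 0.259), LOC_Os07g44440 (1.21, adjusted p = 0.152), LOC_Os05g45180 (flavonoid, 0.76, adjusted p = 0.308), LOC_Os05g30190 (a phytochrome A-associated F-box protein, 0.42, adjusted p = 0.743) and LOC_Os12g19470 (-0.25, adjusted p = 0.940). The wounding and defence loci summed highest in the library that stood apart, and higher in its partner than in either shaded coleoptile library. Of 76 such loci, 30 (39.5%) were lower and 2 higher. WRKY28 (LOC_Os06g44010) was at 0.697 and 0.630 FPKM in shade and 174 and 26.0 FPKM in white light. The part of these loci in the early light-induced values was not tested. Without white light replicate 1 the coleoptile shade differences of the 3 genes were -1.29 to -0.38, as given above. Without white light replicate 2 they were -1.27, -0.69 and -0.47 for LOC_Os07g08160, LOC_Os07g08150 and LOC_Os01g14410.

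**Figure D5:**
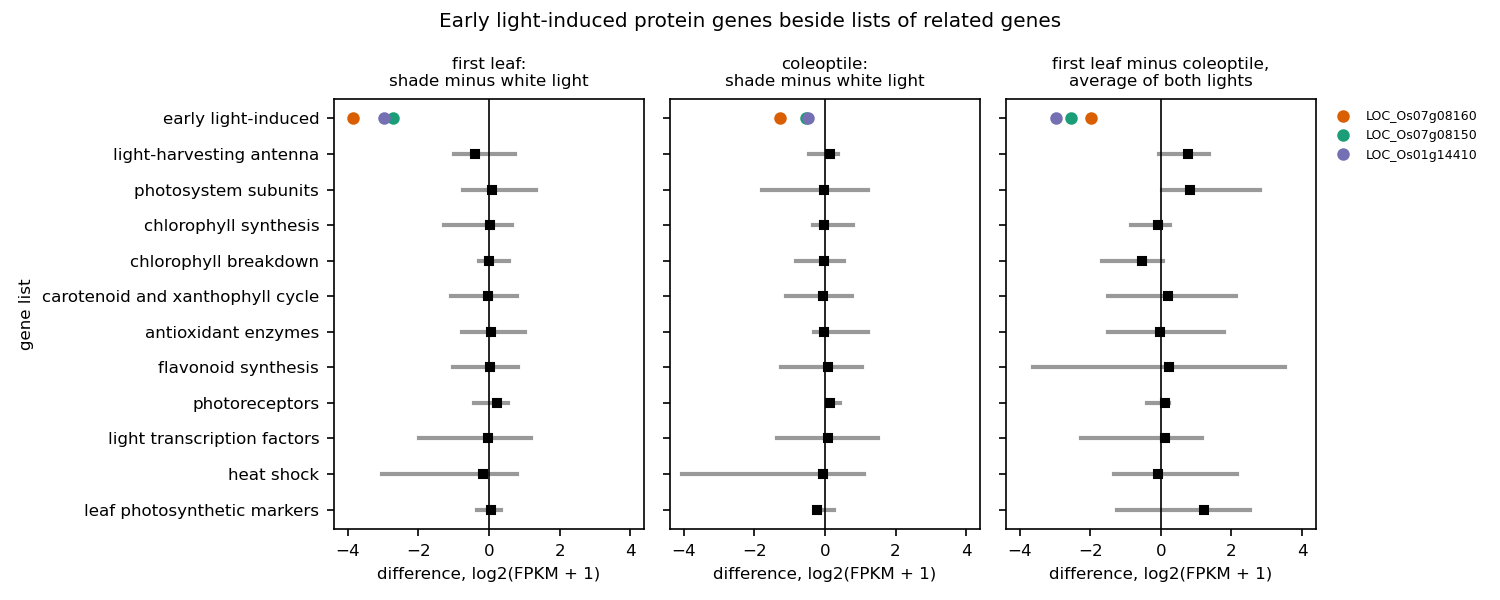
Differences on the log2(FPKM + 1) scale for the 3 early light-induced genes (coloured points) and for lists of related genes (grey line, lowest to highest locus; square, median). In the averaged tissue contrast the 3 genes lie at -2.97 to -1.97 while the antenna and photosystem medians lie at 0.76 and 0.83; in the first leaf shade contrast the 3 genes lie at -3.86 to -2.73 and the heat shock list reaches -3.05.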

How the data were processed

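The authors deposited 1 table of FPKM values per locus with a text annotation, from 8 libraries of paired reads of 150 bp, per the labels. Tools listed in the submitters' processing notes are TopHat2 2.0.14, Bowtie2 2.2.3, version 2.2.1 of Cuffnorm, Cufflinks and Cuffdiff, FastQC 0.11.2, bcl2fastq 2.16.0.10 and Trim Galore 0.3.7. The genome build is not given in the sources used here. FPKM values are not counts, so no count model was used, and fragments per library are unknown beyond the relative step of low values (up to 0.5 FPKM, matched within 1%).

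From these values, log2(FPKM + 1) was fitted in R 4.3.3 with limma 3.58.1 to the 21014 loci that averaged 1 FPKM or more. All 4 groups shared 1 fit with an intensity trend (4 residual and 3.26 prior degrees of freedom). Fold differences on this scale understate the change of low genes. P-values were adjusted by Benjamini and Hochberg over all tested loci and called under 0.05. Plots were drawn with matplotlib 3.10.9.

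The genes, lists and contrasts were chosen with earlier results of these data known. Lists are keywords in the annotation text, with LOC_Os01g07880 (annotated HY5) and the bZIP loci LOC_Os02g10860 and LOC_Os06g39960 by name. The tissue contrast averaged over both lights was planned as a test of the 3 genes and is given as a description, since the choice may rest on its libraries. Named loci are the 3 genes, the 10 loci most correlated with their mean and 3 with each gene, up to 2 called loci per list and direction (otherwise the smallest p), and neighbours within 50 locus numbers. WRKY28 is the smallest p of the wounding list. No locus name matched the RefSeq gene table (0 of 55801), so no sequences or coordinates are used here. Alternatives were other pseudocounts, filters and scalings, fits without the trend, within a tissue or with a replicate block, and leaving out each library.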

Additional observations from a re-analysis of the deposited data

How the results depend on the processing

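The 3 genes kept negative differences under every alternative in all 6 contrasts and were not called in the shaded coleoptile under any. No result reversed. Of the alternatives computed, 450 values kept their side of the threshold or stayed within the replicate spread (counts: near the count given), and 110 moved further. Scaling libraries to equal sums shifted the median of all loci in the coleoptile shade contrast to 0.12, and the differences of LOC_Os07g08160, LOC_Os07g08150 and LOC_Os01g14410 there were -1.17, -0.42 and -0.38. Under that scaling the white light coleoptile means of LOC_Os07g08160 and LOC_Os01g14410 were 262 and 736 FPKM. With a pseudocount of 5 the first leaf minus coleoptile difference of LOC_Os07g08150 in shade was -3.38.

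When 1 library at a time was left out, the first leaf shade difference of LOC_Os01g14410 ran from -3.38 to -2.59. The gap between tissues in the shade difference ran from -3.08 to -2.08 for LOC_Os07g08160, from -2.47 to -1.91 for LOC_Os07g08150 and from -2.89 to -2.09 for LOC_Os01g14410. In shade, the first leaf minus coleoptile difference ran from -3.76 to -2.76 for LOC_Os07g08160 and from -3.92 to -3.36 for LOC_Os07g08150, and in white light it ran from -2.12 to -1.33 for LOC_Os01g14410.

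Numbers of called loci were less stable. In the coleoptile shade contrast limma called 9, against 0 with a pseudocount of 0.1, 68 with no filter, 0 with a mean of at least 5 FPKM, 14 with equal medians, 0 in a fit to 1 tissue and 0 to 1739 without 1 library (1739 without coleoptile white light replicate 2, 232 without replicate 1). In the first leaf shade contrast it called 0, with 1152 at an unadjusted p under 0.05, against 14 with no filter, 5 with a mean of at least 5 FPKM, 11 with equal sums, 12 with equal medians, 14 with quantile normalization, 6 in a fit to 1 tissue and 0 to 51 without 1 library (51 without coleoptile white light replicate 1 or 2). For the gap between tissues it called 4, against 0 with a pseudocount of 0.1, a mean of at least 5 FPKM or equal sums, 39 with no filter, 7 with no trend and 0 to 887 without 1 library. Between tissues it called 4362, and 2540 to 6236 without 1 library. Leaving out a library leaves fewer degrees of freedom, and its group then holds 1 library. The gap between the 2 libraries of that group then no longer enters the spread that all 4 groups share. In white light coleoptiles that gap was over 2-fold at 15.1% of tested loci, against 1.42% to 2.69% in the other groups. How far this set the counts was not tested.

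Called list loci between tissues, without 1 library, were 1 to 12 for antenna, 3 to 16 for photosystem, 0 to 2 for chlorophyll synthesis, 1 to 3 for breakdown, 1 to 6 for carotenoid, 2 to 8 for antioxidant, 17 to 36 for flavonoid, 0 to 1 for photoreceptor and 9 to 30 for heat shock loci. The photosystem count was 14 with quantile normalization and the carotenoid count 3 with equal medians. Over all pathway lists, shade calls ran from 0 to 29 in the coleoptile and 0 to 12 in the first leaf, where equal medians gave 3 and quantile normalization 4.

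Over all tested loci, same-numbered replicates of shade and white light hardly deviated together, with correlations of 0.0854 in the first leaf and 0.0319 in the coleoptile. The numbers were thus not taken as a pairing. In the 3 genes, however, replicate 1 was above replicate 2 in every group, except for LOC_Os07g08160 and LOC_Os01g14410 in white light coleoptiles. A replicate block gave the same differences for the 3 genes and adjusted p of 0.187, 0.382 and 0.669 for LOC_Os07g08160, LOC_Os07g08150 and LOC_Os01g14410 in the shaded coleoptile. Their SEs there were 0.264, 0.175 and 0.257 with the block, against 0.353, 0.238 and 0.314 without it. With the block, 4 loci were called in the coleoptile shade contrast, 2 in the first leaf shade contrast and 0 for the gap between tissues.

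Depth limits are unknown without fragment totals, and 2 libraries a group limit every error given.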
